A study of Homo sapiens with 6 samples.

Results

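The genes of the respiratory chain and ATP synthase were followed in RMS13 cells after a small interfering RNA (siRNA) against GLI1. RMS13 is an established human cell line from a rhabdomyosarcoma (a cancer that carries muscle lineage traits), and GLI1 is a zinc finger transcription factor of the Hedgehog pathway. Members were the 13 protein genes of the mitochondrial chromosome and the nuclear genes whose symbols begin with NDUFA, NDUFB, NDUFC, NDUFS, NDUFV, UQCR, COX4 to COX8 or ATP5, plus SDHB, SDHC and SDHD. NDUFA4L2, COX6A2 and pseudogenes (ATP5F1EP2, NDUFAF4P1, NDUFB9P2 and UQCRBP1) were left out. This gave 106 of the 25702 genes listed, 13 mitochondrial and 93 nuclear. The rule took no measured value. The group siGLI1 (3 libraries) received the siRNA against GLI1 and the group siNT2 (3 libraries) a non-targeting siRNA. Both groups were the same cell line in RPMI medium with fetal bovine serum, and the siRNA incubation lasted 72 h. The labels do not say whether replicates were separate cultures, so the p-values cover library-to-library spread only, and that spread may be technical.

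The respiratory chain sits in the inner mitochondrial membrane. Complex I takes electrons from NADH and complex II from succinate, and ubiquinone carries them to complex III. Cytochrome c then passes them to complex IV, which reduces oxygen. Complexes I, III and IV pump protons, and complex V (ATP synthase) lets the protons flow back to make ATP. Complex II is wholly nuclear encoded, while each other complex mixes a hydrophobic core made inside the mitochondrion with subunits imported from the cytosol. Mitochondrial genes are transcribed as long RNAs from both strands that are then cut apart, so the steady level of each mRNA depends on transcription and on its own decay. MT-ND6 is the protein gene on the opposite strand from all other protein genes. Skeletal muscle is rich in these complexes and has muscle isoforms of several complex IV subunits.

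Recovered reads came to between 13673977 and 18947614 per library. A gene's level below is its deposited value, a read count divided by the library's size factor, called here the normalised read count. A count of 0 allows up to 3 reads, or 2.39 to 3.29 normalised reads depending on the library. GLI1, the targeted gene, was 11962, 17837 and 12774 in siNT2 and 579.9, 906 and 1274 in siGLI1 (log2 fold change -4.0, 95% confidence interval -4.67 to -3.32, adjusted p = 0.00042, by limma). Muscle lineage markers MYOD1, MYOG, CDH15, DES and CHRNA1 were all abundant, and DES (log2 fold change 0.97, adjusted p = 0.0153) and CHRNA1 (log2 fold change 0.62, adjusted p = 0.0112) rose. The other 3, MYOD1, MYOG and CDH15, were not called, so the markers did not rise as a set. The call of CHRNA1 was lost with adjusted p = 0.0594 with siNT2 replicate 1 left out and 0.0697 with siGLI1 replicate 2 left out, and that of DES with 0.0533 with siNT2 replicate 1 left out. MYF5 and MYF6 were under the floor of 3 reads in all 6 libraries. The 4 blood cell markers summed to 1.10 to 3.99 in siNT2 and 5.11 to 9.88 in siGLI1, with HBB at 0. Of the 4 epithelial markers, EPCAM was between 26.7 and 59.0 and the others at most 2.16. Of the 3 endothelial markers, PECAM1, an adhesion protein, was 13.2, 14.2 and 5.58 in siNT2 and 86.4, 81.8 and 90.9 in siGLI1 (log2 fold change 2.96, 95% confidence interval 2.16 to 3.75, adjusted p = 0.00226), while CDH5 and VWF were at or below 9.72. The part of PECAM1-bearing cells or of any shift in cell makeup in the results below was not tested. In bulk RNA, fewer mitochondria per cell, fewer cells of a type and less RNA per mitochondrion cannot be told apart.

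The 9 respiratory chain members that passed the test were all lower in siGLI1, a share close to that of all genes called lower. All 3 mitochondrial genes of complex IV were among the 9. Of 103 members tested, 9 fell, none rose and 94 did not pass the test (limma, adjusted p under 0.05 over all genes). The 9 were 8.74% of those tested, and over all 15622 genes tested 15.2% were called, 8.0% lower and 7.21% higher. The unadjusted p was under 0.05 for 18 members, and the share of all genes under it was not counted. edgeR called 9 members lower and 0 higher, where it called 1200 of all 15622 genes lower and 1182 higher. DESeq2 called 10 members lower and 0 higher, where it called 1634 of all genes lower and 1645 higher. By genome, 5 of 13 mitochondrial members (38.5%) and 4 of 90 nuclear members (4.44%) fell. The median log2 fold change was -0.42 over the mitochondrial members and -0.09 over the nuclear ones, beside -0.01 over all genes tested. No test of the difference between the genomes was made. Leaving out a library changed the count of members that fell from 9 to 2 without siNT2 replicate 1, 5 without siNT2 replicate 2, 6 without siNT2 replicate 3, 4 without siGLI1 replicate 1, 2 without siGLI1 replicate 2 and 14 without siGLI1 replicate 3. The number called over all genes moved with it, from 639 without siGLI1 replicate 2 to 3247 without siGLI1 replicate 3.

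The 13 mitochondrial genes were read far more deeply than their nuclear partners. Per kilobase of transcript, the median level over the 6 libraries was 45312 normalised reads for the mitochondrial members, 1260 for the nuclear members tested and 320 for all genes tested with a length (length being the median over a gene's annotated transcripts). The aligner named in the submitters' notes does not place reads across introns, so levels of nuclear genes with introns may be understated. How far was not measured. Added together, the mitochondrial members were 803784, 732541 and 823381 in siNT2 and 587557, 480917 and 557670 in siGLI1. Each siGLI1 library was below each siNT2 library, and the siGLI1 mean was 68.9% of the siNT2 mean. These genes took 4.66% to 5.45% of all reads in siNT2 and 3.29% to 3.95% in siGLI1. The 93 nuclear members added up to 113385, 125493 and 99942 in siNT2 and 95822, 94917 and 113244 in siGLI1. Here the groups overlapped, with siNT2 replicate 2 highest of all and siGLI1 replicate 3 level with siNT2 replicate 1, and the siGLI1 mean was 89.7% of the siNT2 mean. The ratio of the mitochondrial to the nuclear sum was 7.09, 5.84 and 8.24 in siNT2 and 6.13, 5.07 and 4.92 in siGLI1. Because siGLI1 replicate 1 exceeded siNT2 replicate 2, this ratio overlapped between the groups.

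**Figure D1:**
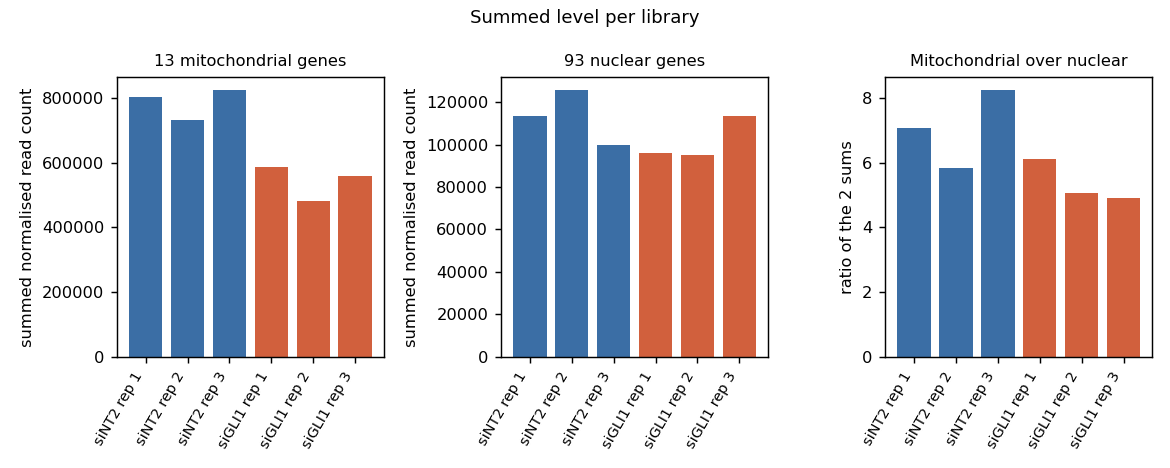
Summed normalised read counts of the 13 mitochondrial and 93 nuclear members, and the ratio of the sums, in each of the 6 libraries (bars, 1 per library; blue siNT2, orange siGLI1; axes start at 0). The mitochondrial sums do not overlap between the groups, with the lowest siNT2 library at 732541 and the highest siGLI1 library at 587557, while the nuclear sums and the ratios overlap.

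All 13 mitochondrial members had a log2 fold change below 0, where 50.8% of all genes tested did. The same held for all 13 under TMM scaling, under scaling on nuclear genes only and in the edgeR and DESeq2 fits, and the exception was MT-ND2 when siGLI1 replicate 2 was left out (0.02). For 8 of the 13 (61.5%) every siGLI1 value lay below every siNT2 value, and none lay wholly above, beside 18.8% of all genes wholly below and 17.4% wholly above. How reads that match both the mitochondrial chromosome and its nuclear copies were counted is not stated. These genes share each library, so their values are not independent of each other.

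**Figure D2:**
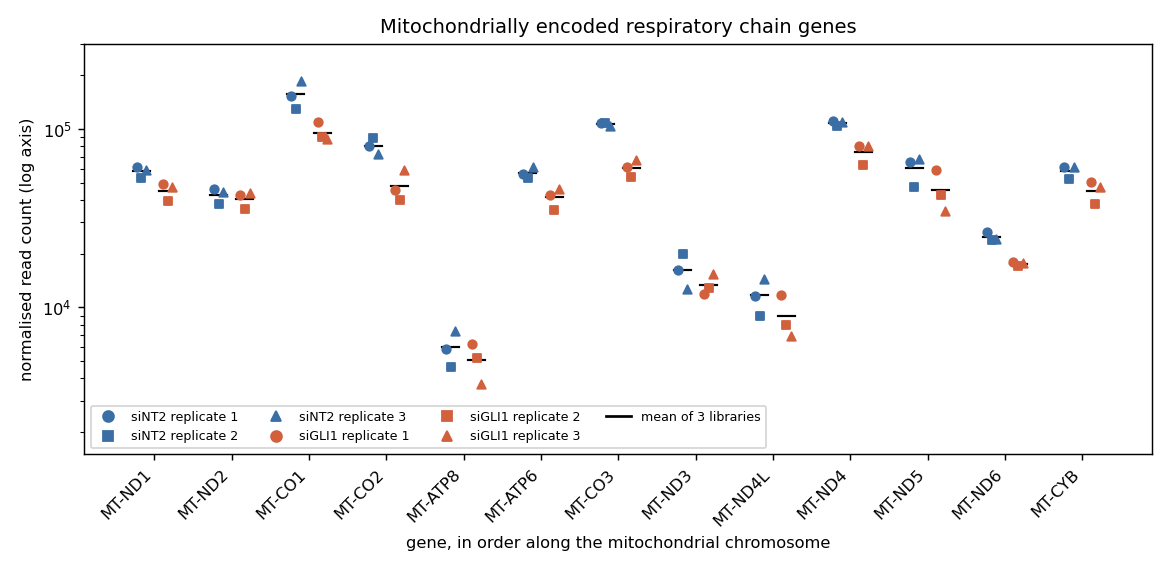
Normalised read count (log axis) of the 13 mitochondrial protein genes in order along the chromosome; each point is a library (symbol for replicate, blue siNT2, orange siGLI1) and each bar the mean of 3 libraries. The siGLI1 libraries lie clear of the siNT2 libraries for MT-CO1, MT-CO2 and MT-CO3, and the groups mix for MT-ND2, MT-ND3, MT-ATP8, MT-ND4L and MT-ND5.

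The complex IV core fell furthest among the mitochondrial genes. MT-CO1, MT-CO2 and MT-CO3 encode the catalytic core of cytochrome c oxidase: MT-CO1 holds the site where oxygen is reduced, MT-CO2 receives electrons from cytochrome c, and MT-CO3 lies beside them. MT-CO3 was 108140, 108664 and 103392 in siNT2 and 61552, 53976 and 66976 in siGLI1. Its siNT2 libraries lay within a narrow band and its siGLI1 libraries reached 57.0% of their mean (log2 fold change -0.82, 95% confidence interval -1.10 to -0.54, adjusted p = 0.00558), a call kept in all 6 fits that left out a library. MT-CO2 was 80548, 88992 and 72254 in siNT2 and 45285, 40059.7 and 58994 in siGLI1. Every siGLI1 library was lower, siGLI1 replicate 3 the nearest to the controls (log2 fold change -0.76, 95% confidence interval -1.15 to -0.37, adjusted p = 0.0232). Its adjusted p was 0.0889 and 0.0600 with siNT2 replicates 1 and 2 left out in turn and 0.0576 and 0.103 with siGLI1 replicates 1 and 2 left out in turn. MT-CO1, the most abundant member before division by length, was 153802, 129346 and 186100 in siNT2 and 109135, 90074 and 87669 in siGLI1. The siNT2 libraries were spread widely, with replicate 3 highest, but did not meet the siGLI1 range (log2 fold change -0.70, 95% confidence interval -1.08 to -0.32, adjusted p = 0.0286). This call was lost at adjusted p = 0.0991 and 0.0777 with siNT2 replicates 1 and 3 left out in turn and 0.122 with siGLI1 replicate 2 left out, and at 0.0653 with no filter on low values. Summed, the 3 genes were at 59.5% of siNT2, and per kilobase they held the 3 highest levels of all members.

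Among the 7 mitochondrial genes of complex I, which build the proton-pumping membrane arm, MT-ND4 and MT-ND6 fell. MT-ND4 was 111192, 103807 and 109068 in siNT2 and 80120.2, 62729.8 and 80827 in siGLI1. The siNT2 libraries were tightly grouped and siGLI1 replicate 2 was the lowest of all (log2 fold change -0.54, 95% confidence interval -0.85 to -0.23, adjusted p = 0.0337). The adjusted p was 0.126, 0.0604 and 0.0889 with siNT2 replicates 1, 2 and 3 left out in turn and 0.0538 and 0.122 with siGLI1 replicates 1 and 2 left out in turn, and 0.0908 with no filter on low values. MT-ND6, from the opposite strand, was 26382, 23899.9 and 24211 in siNT2 and 17919.6, 17071 and 17672 in siGLI1. Both groups were narrow and well apart (log2 fold change -0.50, 95% confidence interval -0.75 to -0.25, adjusted p = 0.0213), and the call was lost at adjusted p = 0.112 and 0.0575 with siNT2 replicates 1 and 3 left out in turn and 0.0605 and 0.111 with siGLI1 replicates 1 and 2 left out in turn, and at 0.0509 with no filter on low values. Whether the authors counted by strand is not stated in the labels or notes, so reads of MT-ND6 and of RNA from the other strand at the same place cannot be told apart.

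The other 5 mitochondrial complex I genes did not pass the test. MT-ND1 had a log2 change of -0.36 (adjusted p = 0.103) with no overlap between groups, MT-ND5 of -0.42 (adjusted p = 0.240), MT-ND4L of -0.41 (adjusted p = 0.294) and MT-ND3 of -0.27 (adjusted p = 0.366). MT-ND2 was 46148, 38148 and 44337 in siNT2 and 42856, 35582 and 43924 in siGLI1. Its groups interleave, and its log2 fold change of -0.07 (adjusted p = 0.748) was the smallest of the 13. The level of MT-CO3 divided by that of MT-ND2 in the same library was 2.34, 2.85 and 2.33 in siNT2 and 1.44, 1.52 and 1.52 in siGLI1. This pair was picked for the largest and smallest change among the 13, which sets that gap, so the ratio is a description with no test. The ratio of MT-CO1 to MT-ND1, also picked after the values were seen, was lower in every siGLI1 library (1.85 to 2.29) than in every siNT2 library (2.43 to 3.15).

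MT-CYB, the cytochrome b of complex III, was 61179, 52242 and 61226 in siNT2 and 50259, 38138 and 47164 in siGLI1. The groups did not overlap, and the log2 fold change of -0.37 (adjusted p = 0.122) did not pass. MT-ATP6, the proton channel subunit of ATP synthase, was 55733, 53262 and 61485 in siNT2 and 42751, 35123 and 46221 in siGLI1. It too was lower in each siGLI1 library and missed the threshold at -0.46 (adjusted p = 0.0617) in limma, with adjusted p = 0.0456 in DESeq2 and 0.0377 in limma without siGLI1 replicate 3. With any other library left out, the limma value for MT-ATP6 was between 0.0860 and 0.218. MT-ATP8, a small partner subunit, was 5877, 4661 and 7396 in siNT2 and 6220.5, 5217 and 3729 in siGLI1. Its groups overlapped (log2 fold change -0.25, adjusted p = 0.508).

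MT-ATP8 and MT-ATP6 share 46 bases, read in different frames, which are 22.2% of MT-ATP8, so reads there belong to both genes and their separate counts are uncertain. The shared stretch is shown because it limits how far the values of this pair can be separated; it runs from the start of MT-ATP6 (its start codon in capitals) on the plus strand of the GRCh38 mitochondrial chromosome, chrM:8527-8572.
MT-ATP8 and MT-ATP6 overlap: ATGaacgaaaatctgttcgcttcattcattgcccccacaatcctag

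MT-ND4L and MT-ND4 share 7 bases in the same manner. The ratio of MT-ATP6 to MT-ATP8 was 9.48, 11.4 and 8.31 in siNT2 and 6.87, 6.73 and 12.4 in siGLI1, and that of MT-ND4 to MT-ND4L was 9.58, 11.5 and 7.52 in siNT2 and 6.79, 7.89 and 11.7 in siGLI1. In both ratios siGLI1 replicate 3 stood apart from its group on the high side, and siNT2 replicate 3 was lowest in its group.

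The mitochondrial ribosomal RNAs, which are not members, lie upstream on the same strand as most of them. MT-RNR1 and MT-RNR2 together were 278195, 237945 and 198653 in siNT2 and 215234, 167372 and 140184 in siGLI1. The sums overlapped, as did the groups of MT-RNR1 (log2 fold change -0.40, adjusted p = 0.295). MT-RNR2 was 154997, 140089 and 124587 in siNT2 and 120100, 96029.9 and 82395 in siGLI1, lower in each siGLI1 library without passing (log2 fold change -0.50, adjusted p = 0.0801), and it was called lower after GC correction (log2 fold change -0.65, adjusted p = 0.0149). The mitochondrial mRNA sum divided by this rRNA sum was 2.89, 3.08 and 4.14 in siNT2 and 2.73, 2.87 and 3.98 in siGLI1, with overlap. The labels name an mRNA library kit, and how far that step left rRNA in each library was not measured.

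The nuclear members mostly stayed within the spread of the libraries. Of 93, COX4I2, COX7B2 and COX8C were too low to test. Of the 90 tested, NDUFA3 (complex I), UQCRC1 (complex III), COX8A (complex IV) and ATP5MC2 (complex V) fell and none rose. In 58 the log2 fold change was below 0 and in 32 above. The groups did not overlap for 17: 11 lay lower in siGLI1 (12.2%) and 6 higher (6.67%), beside 18.8% and 17.4% over all genes. The count of 4 that fell ran from 1 (without siNT2 replicate 1 or without siGLI1 replicate 2) to 8 (without siGLI1 replicate 3), and was 2 without siNT2 replicate 2 or siGLI1 replicate 1.

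**Figure D3:**
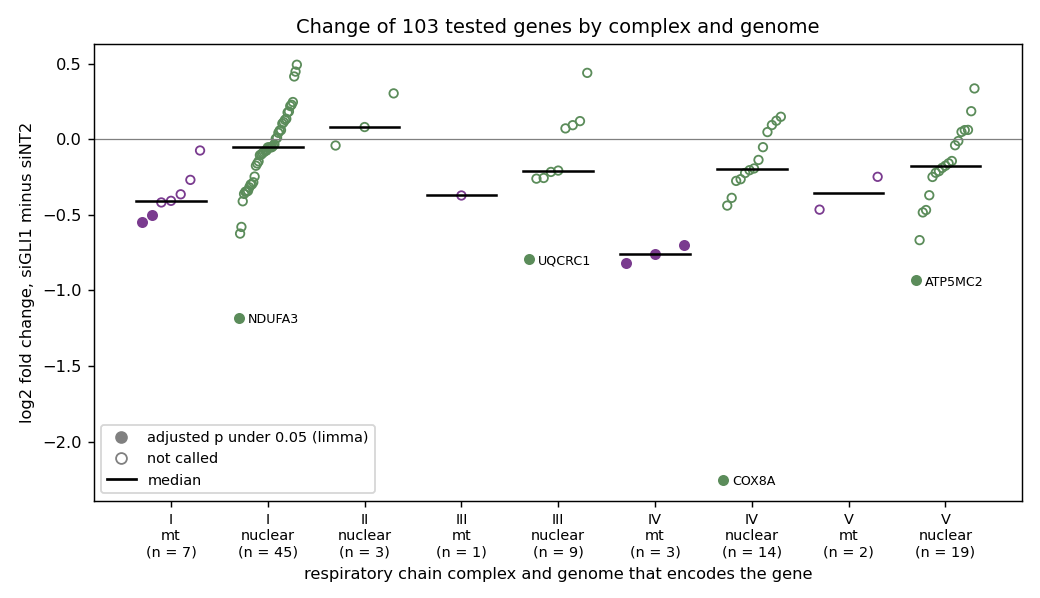
Log2 fold change (siGLI1 minus siNT2, vertical axis) of the 103 tested members by complex and by the genome that encodes them; each circle is a gene, filled where limma's adjusted p was under 0.05, and bars are medians. The 3 mitochondrial genes of complex IV lie between -0.82 and -0.70, and COX8A at -2.25 lies farthest from 0.

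COX8A was the member that changed most. It encodes the small transmembrane subunit VIII of cytochrome c oxidase, the form made in most tissues. It was 2613, 3073 and 2179 in siNT2 and 528, 445 and 685 in siGLI1. The highest siGLI1 library was under the lowest siNT2 library by a wide gap, and the means were 2622 ± 447 (SD, n = 3) in siNT2 and 553 ± 122 (SD, n = 3) in siGLI1, which leaves 21.1% (log2 fold change -2.25, 95% confidence interval -2.72 to -1.78, adjusted p = 0.00093). Every fit that left out a library kept the call, with adjusted p from 0.000687 to 0.00948. Compared with COX4I1, another nuclear subunit of the same complex, the COX8A level was 1.08, 1.04 and 1.25 times as high in siNT2 and 0.281, 0.255 and 0.276 times in siGLI1. That ratio varied little within each group, while COX4I1 itself was 2417, 2953 and 1739 in siNT2 and 1877, 1741 and 2486 in siGLI1, with overlapping groups (log2 fold change -0.20, adjusted p = 0.573).

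UQCRC1 encodes a core protein of complex III that faces the matrix. It was 1892, 2148 and 1754 in siNT2 and 1061, 1028 and 1250.4 in siGLI1. Every siGLI1 library was lower (log2 fold change -0.79, 95% confidence interval -1.13 to -0.46, adjusted p = 0.0112), and the adjusted p was 0.0590 with siNT2 replicate 1 left out and 0.0755 with siGLI1 replicate 2 left out. Its partner core protein UQCRC2 was 2488, 2213 and 2277 in siNT2 and 2180.4, 1849 and 2024 in siGLI1. The UQCRC2 groups were also apart but close (log2 fold change -0.21, adjusted p = 0.303), and the ratio of UQCRC1 to UQCRC2 was 0.760, 0.971 and 0.770 in siNT2 and 0.486, 0.556 and 0.618 in siGLI1.

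NDUFA3, a small accessory subunit of the complex I membrane arm, was 225, 333 and 151 in siNT2 and 87.5, 92.0 and 119 in siGLI1. The siNT2 libraries spread over more than the distance between siNT2 replicate 3 and the siGLI1 range, yet the groups stayed apart (log2 fold change -1.18, 95% confidence interval -1.86 to -0.50, adjusted p = 0.0346). Its adjusted p was 0.111 and 0.0655 with siNT2 replicates 1 and 2 left out in turn and 0.0746 and 0.139 with siGLI1 replicates 1 and 2 left out in turn. ATP5MC2 is 1 of 3 genes for the same mature c subunit, which forms the rotating ring of ATP synthase. ATP5MC2 was 1609.8, 2157 and 1233 in siNT2 and 715, 795 and 1083 in siGLI1. siNT2 replicate 3 and siGLI1 replicate 3 came nearest to each other (log2 fold change -0.93, 95% confidence interval -1.49 to -0.37, adjusted p = 0.0392), and the adjusted p was 0.121 and 0.0841 with siNT2 replicates 1 and 2 left out in turn and 0.0919 and 0.157 with siGLI1 replicates 1 and 2 left out in turn.

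**Figure D4:**
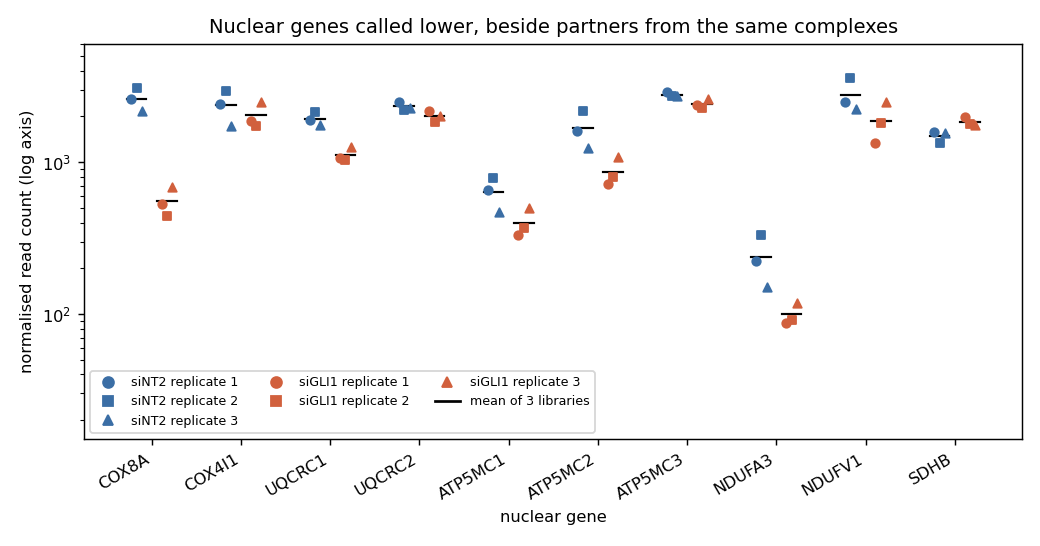
Normalised read count (log axis) of the 4 nuclear members that fell, COX8A, UQCRC1, ATP5MC2 and NDUFA3, beside 6 other nuclear members. Of these 6, SDHB belongs to complex II, which held no call, and the rest to the complexes of the 4. Points are libraries (symbol for replicate, blue siNT2, orange siGLI1) and bars means of 3. COX8A drops from between 2179 and 3073 to between 445 and 685, while the groups of COX4I1, ATP5MC1 and NDUFV1 overlap.

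The promoters of these 4 genes are shown because they were the nuclear members that fell. Each runs from 250 bases before to 50 after the annotated start, 5′ to 3′ on the gene's strand, from RefSeq on GRCh38.p14. The deposited counts used hg19, so these positions are not those of the counts. ATP5MC2 has 3 listed starts, of which the first is shown.
COX8A promoter, chr11:63974370-63974669, plus strand: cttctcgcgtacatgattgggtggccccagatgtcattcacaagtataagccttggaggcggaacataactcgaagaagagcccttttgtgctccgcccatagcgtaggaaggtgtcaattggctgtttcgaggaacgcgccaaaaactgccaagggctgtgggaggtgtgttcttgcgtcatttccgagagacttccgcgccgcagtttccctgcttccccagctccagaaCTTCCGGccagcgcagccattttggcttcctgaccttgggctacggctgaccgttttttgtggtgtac
UQCRC1 promoter, chr3:48609597-48609896, minus strand: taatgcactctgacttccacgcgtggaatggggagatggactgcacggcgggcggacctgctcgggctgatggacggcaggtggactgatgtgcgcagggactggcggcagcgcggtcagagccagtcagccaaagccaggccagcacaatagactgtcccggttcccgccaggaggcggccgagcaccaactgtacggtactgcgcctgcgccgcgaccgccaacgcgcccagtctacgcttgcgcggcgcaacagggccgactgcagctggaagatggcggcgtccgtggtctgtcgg
NDUFA3 promoter, chr19:54102605-54102904, plus strand: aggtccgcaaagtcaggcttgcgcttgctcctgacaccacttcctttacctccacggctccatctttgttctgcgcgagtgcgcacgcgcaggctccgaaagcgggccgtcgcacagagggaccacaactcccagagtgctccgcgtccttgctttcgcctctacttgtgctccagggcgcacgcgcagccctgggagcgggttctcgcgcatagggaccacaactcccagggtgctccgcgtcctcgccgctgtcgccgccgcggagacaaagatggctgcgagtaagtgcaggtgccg
ATP5MC2 promoter, chr12:53676034-53676333, minus strand: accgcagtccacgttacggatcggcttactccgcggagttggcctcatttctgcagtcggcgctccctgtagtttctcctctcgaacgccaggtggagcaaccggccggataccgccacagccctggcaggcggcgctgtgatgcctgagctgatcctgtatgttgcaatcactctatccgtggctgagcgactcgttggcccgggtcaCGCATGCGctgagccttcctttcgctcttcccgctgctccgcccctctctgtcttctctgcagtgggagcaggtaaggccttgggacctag

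Capitals mark matches, on either strand, to 3 motifs that were searched: the core CGCATGCG bound by nuclear respiratory factor 1 (NRF1), the core CCGGAAG bound by ETS factors such as GABPA, and GACCACCCA, the word GLI proteins bind. Of the 4 promoters, that of COX8A held 1 ETS core, that of ATP5MC2 1 NRF1 core, and the other two no match. Only the nuclear members were looked up, and a promoter was listed for 76 of the 93. The NRF1 core lay in 12 of the 76 (15.8%), beside 2.46% of 27305 genes with a promoter and 4.37% of 11433 tested genes. The ETS core lay in 23 (30.3%), beside 12.2% and 21.2%. The GLI word lay in none of the 76, beside 0.297% and 0.359%. No motif contains another, a match is not a binding site, and the lack of one says only that these letters are not in that window.

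An earlier look at these libraries had singled out the 7-base word GCACCTC in transcripts that were lower in siGLI1. Because that word and the calls come from the same comparison, its presence is a description only. Read in 1 transcript per gene (GENCODE release 29, the principal or else the longest), it lay in NDUFA3, UQCRC1 and ATP5MC2 but not in COX8A, so in 3 of the 4 nuclear members that fell. It lay in 5 of the other 86 nuclear members and in 23.5% of 13241 tested genes, whose transcripts were longer (median 3180 bases, against 1080 for the other nuclear members). The median was 1456.5 bases for the 4 that fell. Over tested genes, 14.7% of the 3106 with the word were called lower, against 6.09% of the 10135 without it. The labels give no siRNA sequence. The 30-base stretches that hold the word (capitals) lie in the 3′ untranslated region of NDUFA3 and in the coding part of UQCRC1 and ATP5MC2.
NDUFA3: agaaactgtgaGCACCTCcactgacagagg
UQCRC1: ctcgcccagaaGCACCTCggtggcatccca
ATP5MC2: cttggtcaagaGCACCTCacagctgctgag

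Complex I had 52 members, 7 mitochondrial and 45 nuclear, and 3 fell (5.77%, beside 8.0% of all genes tested). Its 45 nuclear members had a median log2 fold change of -0.05 and ran from -1.18 (NDUFA3) to 0.49 (NDUFS4). The 8 members of the N module, which takes electrons from NADH, had a median of 0.05 and none was called. NDUFV1, the flavin-carrying subunit that meets NADH, was 2472, 3592 and 2248 in siNT2 and 1328, 1804 and 2495 in siGLI1. Its siGLI1 replicate 3 was above 2 siNT2 libraries (log2 fold change -0.58, adjusted p = 0.179). Without that library limma's adjusted p was 0.0477, and with any other left out it was between 0.173 and 0.409. NDUFV2, its iron-sulfur partner, went the other way without overlap but did not pass (log2 fold change 0.45, adjusted p = 0.126). NDUFS4, an accessory subunit on the matrix arm, was 560.0, 667 and 462 in siNT2 and 717, 767 and 878 in siGLI1. All siGLI1 libraries were higher, the largest positive value among the members, and it did not pass (log2 fold change 0.49, adjusted p = 0.0966).

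The 7 members of the Q module, where ubiquinone is reduced, had a median of -0.09 with none called. NDUFS5, a small intermembrane space subunit and among the highest by mean level of the nuclear members of complex I, was not called (log2 fold change -0.35, adjusted p = 0.309), and NDUFAB1, the mitochondrial acyl carrier protein, was higher in every siGLI1 library without passing (log2 fold change 0.25, adjusted p = 0.289). The 8 NDUFAF genes make assembly factors, which help build complex I and are not part of it. None was called, and their median was -0.05. NDUFAF4 was 379.9, 347 and 336 in siNT2 and 255, 282 and 262 in siGLI1. It was lower in each siGLI1 library (log2 fold change -0.41, adjusted p = 0.0862), while NDUFAF1 was higher in each (log2 fold change 0.42, adjusted p = 0.121). NDUFAF8 had the largest drop among them, -0.62 (adjusted p = 0.161), with overlapping groups. Limma's adjusted p was 0.0260 without siGLI1 replicate 3 and between 0.150 and 0.389 with any other library left out.

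Complex II, which also serves the citric acid cycle, showed no call. SDHB, the iron-sulfur subunit, was 1581, 1329 and 1566 in siNT2 and 1977, 1788 and 1753 in siGLI1. Every siGLI1 library was above every siNT2 library, and the difference did not pass (log2 fold change 0.30, adjusted p = 0.159). The membrane anchors SDHC (log2 fold change -0.04, adjusted p = 0.868) and SDHD (log2 fold change 0.08, adjusted p = 0.772) overlapped between the groups. SDHA, the flavoprotein subunit outside the rule, was also not called (log2 fold change -0.02, adjusted p = 0.949). The summed level of SDHB, SDHC and SDHD was 112.6% of siNT2, with overlap, the only complex whose siGLI1 mean was above that of siNT2.

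Complex III had 1 call in 10 members (10%, beside 8.0% of all genes called lower), UQCRC1, and a median of -0.21. UQCR10, a small subunit, had the highest value, 0.44 (adjusted p = 0.264), with overlapping groups. UQCRFS1, the Rieske iron-sulfur protein, was 1789, 1645 and 1711 in siNT2 and 1918, 1738 and 1943 in siGLI1, mixed between groups (log2 fold change 0.12, adjusted p = 0.528). UQCRHL was read more than UQCRH, the hinge protein gene it closely copies: their ratio lay between 2.10 and 2.77 in the 6 libraries. Neither UQCRH (log2 fold change -0.22, adjusted p = 0.422) nor UQCRHL (log2 fold change -0.26, adjusted p = 0.225) was called. Reads of near-identical copies can be split between them, and the aligner named in the submitters' notes does not place reads across introns, so their separate values are uncertain. CYC1, the cytochrome of this complex (log2 fold change -0.08, adjusted p = 0.738), and CYCS, cytochrome c (log2 fold change -0.06, adjusted p = 0.809), fell outside the rule and were not called.

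In complex IV, 4 of 17 tested members fell (23.5%, beside 8.0% of all genes tested): its 3 mitochondrial genes and COX8A. The other 13 nuclear members were not called, and the median over all 14 nuclear members was -0.20. COX7C had a log2 change of -0.39 (adjusted p = 0.159), COX6B1 -0.22 (adjusted p = 0.455), COX5A -0.19 (adjusted p = 0.460), COX7B -0.27 (adjusted p = 0.457) and COX6C -0.14 (adjusted p = 0.660). Closest to 0 were COX5B at 0.05 (adjusted p = 0.820) and NDUFA4, named for complex I but found in complex IV, at -0.05 (adjusted p = 0.849). COX7A2L, which helps join complexes III and IV, was lower in every siGLI1 library (2807, 2461 and 2819.7 in siNT2 and 2428, 2251 and 2060.2 in siGLI1). It did not pass (log2 fold change -0.26, adjusted p = 0.204).

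Complex IV subunits with tissue forms were read mainly in their common form. COX4I2, a lung form, was at 0 in 5 libraries and at 1 read in the sixth, and COX7B2 was at 0 in all 6. COX8C, a testis form, held at most 3.07 normalised reads, at or under the floor in each library of both groups. COX7A1, the heart and muscle form, was 48.3, 61.9 and 40.7 in siNT2 and 47.5, 60.3 and 58.3 in siGLI1, with the groups mixed (log2 fold change 0.15, adjusted p = 0.687), beside 924 ± 243 for the common form COX7A2 in siNT2 (SD, n = 3), which was not called either at 0.09 (adjusted p = 0.791). COX6B2, a testis form, was 39.5, 54.8 and 19.1 in siNT2 and 17.3, 30.7 and 30.6 in siGLI1, with overlap (log2 fold change -0.44, adjusted p = 0.511). COX6A1, the common form of subunit VIa, did not pass (log2 fold change 0.12, adjusted p = 0.718). Per kilobase, COX6B2 and COX7A1 were the lowest members tested, at 51.7 and 121.3 over the 6 libraries.

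Complex V had 1 call in 21 members (4.76%, beside 8.0% of all genes called lower), ATP5MC2. The 3 c-ring genes summed to 5179.6, 5673 and 4425 in siNT2 and 3426, 3419 and 4185 in siGLI1, or 72.2% of siNT2, without overlap. ATP5MC1 was 652, 788 and 472 in siNT2 and 333, 366 and 497 in siGLI1, with siGLI1 replicate 3 above siNT2 replicate 3 (log2 fold change -0.67, adjusted p = 0.0961). Without siGLI1 replicate 3 its adjusted p in limma was 0.0393, and with any other library left out it was between 0.0609 and 0.276. ATP5MC3, the c-subunit gene read most, was lower in each siGLI1 library by a small amount (log2 fold change -0.21, adjusted p = 0.271).

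The 5 genes of the catalytic F1 head summed to 101.6% of siNT2 with overlap, and none was called. ATP5F1B, the catalytic beta subunit, was 10934, 9137 and 11751 in siNT2 and 12029.5, 10297 and 10768 in siGLI1. Its groups mixed (log2 fold change 0.06, adjusted p = 0.794), and per kilobase it was the highest nuclear member, at 13292 normalised reads. ATP5F1A, the alpha subunit, was higher in each siGLI1 library, with its highest siNT2 library at 3019.7 and its lowest siGLI1 library at 3024 (log2 fold change 0.19, adjusted p = 0.321), and ATP5F1D, the delta subunit, had -0.47 (adjusted p = 0.369) with overlap. The 4 genes of the peripheral stalk, which holds the head still, had a median of -0.10 and no call. ATP5IF1, the inhibitor that blocks ATP hydrolysis by the enzyme, was 1492, 1654 and 1341 in siNT2 and 929, 1029 and 1266 in siGLI1. It was lower in each siGLI1 library (log2 fold change -0.48, adjusted p = 0.0831). Its adjusted p in limma was 0.0304 without siGLI1 replicate 3 and between 0.106 and 0.259 with any other library left out. ATP5F1E carries a limit: the pseudogene ATP5F1EP2 had 7442 ± 2304 (SD, n = 3) in siNT2 and 7071 ± 1577 (SD, n = 3) in siGLI1, more than ATP5F1E itself at 2419.5 ± 953 (SD, n = 3) in siNT2 and 2106 ± 407 (SD, n = 3) in siGLI1, so reads may be split between the copies. The pseudogenes UQCRBP1 (1239 ± 194 (SD, n = 3) in siNT2 and 1298 ± 94.3 (SD, n = 3) in siGLI1) and NDUFB9P2 (645 ± 121 (SD, n = 3) in siNT2 and 468 ± 94.2 (SD, n = 3) in siGLI1) also held reads, which puts the same limit on UQCRB and NDUFB9.

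The nuclear members also varied together inside each group. siNT2 replicate 2 was the highest siNT2 library for 69 of 90 nuclear members (76.7%), where it was for 43.0% of all genes tested. siGLI1 replicate 3 was the highest siGLI1 library for 70 of 90 (77.8%), against 44.8% of all genes. In the same 2 libraries, genes rich in GC read higher: over 14652 tested genes, the rank correlation of a gene's GC content with its deviation from its group mean was 0.67 in siNT2 replicate 2 and 0.72 in siGLI1 replicate 3, and between -0.67 and -0.29 in the other 4. Over the 90 nuclear members it was 0.41 and 0.58 in those 2 libraries and between -0.50 and -0.32 in the rest. The median GC content was 48.7% over these members and 50.2% over all genes tested, so as a set they were not GC rich. They were shorter, with a median of 640.5 bases against 1049. The rank correlation of their length with the deviation was -0.40 in siNT2 replicate 2 and -0.30 in siGLI1 replicate 3. In the rest it was between 0.06 and 0.40. What lay behind the shared pattern was not tested. These are correlations over genes that share each library, given as a description.

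**Figure D5:**
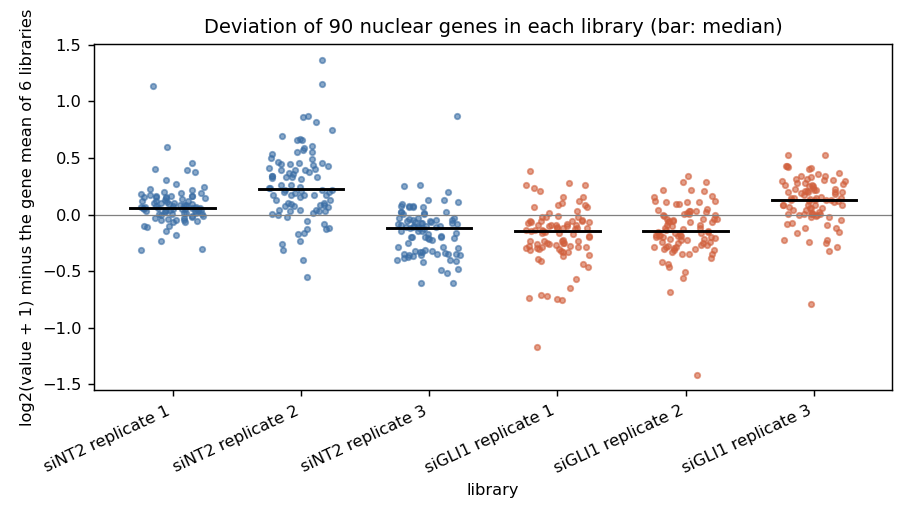
Deviation of the 90 tested nuclear members in each library (log2(value + 1) minus the gene's mean over 6 libraries; points are genes, bars medians; blue siNT2, orange siGLI1). The medians are 0.23 in siNT2 replicate 2 and 0.13 in siGLI1 replicate 3 but -0.12 in siNT2 replicate 3, so within a library most of these genes deviate the same way.

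With each library's dependence on GC content removed, 21 members fell and none rose, where 16.2% of the 14652 genes with a GC value were called lower. They were 11 mitochondrial members, all but MT-ND2 and MT-ND3, and 10 nuclear ones: the 4 above and NDUFAF4, NDUFAF8, NDUFV1, COX7A2L, ATP5IF1 and ATP5MC1. The 10 are 11.1% of the nuclear members tested. The mitochondrial median became -0.56 and the nuclear median -0.11. The correction used deviations from each gene's mean over all 6 libraries, so it also removed any GC trend between the groups. Before correction, the rank correlation of GC content with the log2 fold change was -0.29 over the 14652 genes and -0.33 over the 90 nuclear members. The median GC content of the mitochondrial members was 44.3%. COX8A kept a log2 fold change of -2.11 (adjusted p = 2.9e-05, limma) and MT-CO3 one of -0.92 (adjusted p = 0.00309). 

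Genes that serve the chain without being part of it were taken from 8 lists. Beside their counts stand the shares over all genes tested, 7.21% called higher and 8.0% lower. Of 15 genes for mitochondrial transcription and DNA copying, 1 rose and none fell: TWNK, the helicase that unwinds mitochondrial DNA, was 1536, 1226 and 1621 in siNT2 and 2273, 1974 and 2163 in siGLI1 (log2 fold change 0.56, 95% confidence interval 0.21 to 0.90, adjusted p = 0.0437). It was higher in every siGLI1 library, but the call was lost whichever single library was left out (adjusted p between 0.0574 and 0.127). TFAM, which packs mitochondrial DNA and starts its transcription, was 527, 349 and 591 in siNT2 and 1056, 1025 and 571 in siGLI1. siGLI1 replicate 3 sat among the controls (log2 fold change 0.83, adjusted p = 0.0948), and leaving it out gave an adjusted p of 0.0172. With any other library left out, limma's adjusted p for TFAM was between 0.107 and 0.295. POLRMT, the polymerase, was not called (log2 fold change -0.06, adjusted p = 0.924).

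Of 19 genes that process or protect mitochondrial RNA, 1 fell and none rose. TBRG4, also called FASTKD4, which affects the levels of several mitochondrial mRNAs, was 2549.7, 2967 and 2124 in siNT2 and 1334, 1440.5 and 1697 in siGLI1. All siGLI1 libraries were lower (log2 fold change -0.77, 95% confidence interval -1.15 to -0.38, adjusted p = 0.0218), and the call was lost at adjusted p = 0.0931 and 0.0542 with siNT2 replicates 1 and 2 left out in turn and 0.0607 and 0.109 with siGLI1 replicates 1 and 2 left out in turn. LRPPRC and SLIRP, a pair that stabilises mitochondrial mRNAs, were not called at log2 fold changes of 0.17 (adjusted p = 0.520) and 0.32 (adjusted p = 0.307). None of the 10 tested nuclear regulators passed, among them NRF1 (log2 fold change -0.12, adjusted p = 0.544) and ESRRA (log2 fold change -0.40, adjusted p = 0.265).

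Of 33 assembly genes for complexes II to V, COX17, the copper chaperone of complex IV, rose: 117, 161 and 84.5 in siNT2 and 207, 259 and 238 in siGLI1 (log2 fold change 0.99, 95% confidence interval 0.42 to 1.56, adjusted p = 0.0350). No siGLI1 library overlapped siNT2, and the adjusted p was 0.112 and 0.0801 with siNT2 replicates 1 and 3 left out in turn and 0.151 with siGLI1 replicate 2 left out. Of 10 complex I assembly genes outside the rule, DMAC2 fell, from 1612 to 1657 in siNT2 to 617 to 744 in siGLI1 (log2 fold change -1.26, 95% confidence interval -1.56 to -0.96, adjusted p = 0.00139). Of 9 carriers of ATP, phosphate and protons, UCP2, an inner membrane carrier of the uncoupling protein family, fell: 628, 683 and 608 in siNT2 and 191, 178 and 294 in siGLI1 (log2 fold change -1.56, 95% confidence interval -2.05 to -1.08, adjusted p = 0.00377). DMAC2 and UCP2 kept their calls in all 6 fits that left out a library.

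The mitochondrial ribosome, which translates the 13 mitochondrial mRNAs, had 77 protein genes tested, 6 higher and 5 lower, with a median of 0.09. These counts were near the shares over all genes tested, 7.21% higher and 8.0% lower. The groups did not overlap for 21 of the 77 genes that lay higher in siGLI1 and 6 that lay lower, beside 17.4% and 18.8% of all genes tested. The genes named next were picked by p, and all were among those called lower. The most changed was MRPL4 at 1198, 1616 and 927 in siNT2 and 333, 389.5 and 605 in siGLI1, with a wide gap between the groups (log2 fold change -1.50, 95% confidence interval -2.14 to -0.86, adjusted p = 0.0124). MRPL58, a release factor built into the large subunit, had a log2 change of -1.14 (adjusted p = 0.00879), MRPS24 of -1.07 (adjusted p = 0.0165) and MRPS2 of -1.02 (adjusted p = 0.0147). Leaving out siGLI1 replicate 2 ended all 4 of these calls, at adjusted p between 0.0585 and 0.0872, and leaving out siNT2 replicate 1 ended those of MRPL4 (0.0540), MRPS2 (0.0672) and MRPS24 (0.0755). The 3 genes SDHA, CYC1 and CYCS gave no call.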

How the data were processed

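RNA was sequenced from 3 siGLI1 and 3 siNT2 libraries, grouped by the labels. Per the submitters' processing notes, the tools were Subread 1.6.4 with featureCounts, the aligner Bowtie2 2.3.3.1, Trim Galore 0.4.5, bcl2fastq and DESeq2 2.11.40.6, on build hg19. The strand setting and annotation are not stated there. The authors deposited signal values, read counts divided by 1 size factor per library. To within 0.01 reads, 100.0% of values came out as whole reads, which were used for the count tests.

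Symbols came from a RefSeq table of GRCh38.p14 (23696 of 25702 Entrez IDs, 92.2%). That table lists NDUFA4 under a newer symbol, and the older one was used. GC content and length are medians over GENCODE release 29 transcripts.

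The main test was limma 3.58.1 (R 4.3.3) on log2(value + 1), which understates changes of low genes, for genes with a mean of 10 or more, with group as the only term. Benjamini-Hochberg adjustment ran over all 15622 genes, with a threshold of 0.05. edgeR 4.0.16 called 1182 genes higher and 1200 lower on the whole reads. Other alternatives were DESeq2 1.42.0, pseudocounts of 0.5 and 8, other filters, TMM scaling, GC correction (loess, span 0.5), a replicate block, leaving out each library and, added after seeing the data, scaling on nuclear genes only. The script was tested on simulated counts. Floors and intervals cover counting error or spread between libraries only. Promoters were searched in Python 3.11.15.

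The members and lists were chosen with earlier results of these data known. Named genes were all mitochondrial members, nuclear members that passed, the 2 most abundant and 2 most changed per complex, paralogues, and up to 4 genes per list by p. ATP5F1A, ATP5F1D, ATP5F1E, COX5A, COX5B, COX6C, COX7C, LRPPRC, SLIRP, POLRMT, NDUFAF1, NDUFAF4, NDUFS4, NDUFS5, NDUFV1, NDUFV2, UQCRC2, UQCRFS1, the genes that GC correction or a left-out library added, the motifs, GCACCTC and all ratios between genes were chosen after values were seen.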

Additional observations from a re-analysis of the deposited data

How the results depend on the processing

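No member rose under any setting run. Pseudocounts of 0.5 and 8, a mean of 50 or more, TMM scaling, scaling on nuclear genes only and edgeR each left 9 members lower, 5 of them mitochondrial, and DESeq2 gave 10; the shared genes were not counted. Without a filter on low values, 2 mitochondrial members were called lower, MT-CO2 and MT-CO3, and the calls of MT-CO1, MT-ND4 and MT-ND6 were lost. GC correction gave 21 members lower (11 mitochondrial, 10 nuclear) and a mitochondrial median of -0.56. It called 2266 of 14652 genes higher and 2371 lower, and 20 higher and 18 lower in the other lists. DESeq2 gave 14 higher in those lists, where it called 1645 of all 15622 genes higher. The lists held 3, 33, 10, 15, 19, 10, 77 and 9 genes tested in the main fit, with COA1 in both lists of assembly genes. The share called over the lists together was not computed.

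The labels give same-numbered libraries codes with a shared first part and do not say what it marks. Same-numbered libraries did not all deviate together: the correlations of their deviations from the group means were 0.49, -0.11 and -0.61 for numbers 1, 2 and 3. These deviations still held each library's dependence on GC content, so the correlations cannot settle whether the libraries were paired. With the replicate block, 462 genes were called higher and 508 lower, 3 members lower (2 mitochondrial and 1 nuclear), and 0 higher and 4 lower in the other lists. COX8A, MT-CO3 and MT-CO1 (adjusted p = 0.0492, limma) passed with the block. MT-CO2 (0.0630), MT-ND4 (0.0542), MT-ND6 (0.0787), NDUFA3 (0.0802), UQCRC1 (0.0651) and ATP5MC2 (0.0997) did not. The replicate block with GC correction gave 16 members lower, 11 of them mitochondrial, and a mitochondrial median of -0.56. Over all 14652 genes with a GC value it called 1770 lower and 1686 higher.

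Leaving out a library left 280 to 1543 genes higher and 359 to 1704 lower, the lowest without siGLI1 replicate 2 and the highest without siGLI1 replicate 3. Members lower ran from 2 to 14, mitochondrial ones from 1 to 6 and nuclear ones from 1 to 8. The mitochondrial median ran from -0.53 to -0.35, and the other lists held 0 to 9 higher and 2 to 10 lower. The log2 fold change of MT-ND2 ran from -0.16 to 0.0218, above 0 without siGLI1 replicate 2. These fits have fewer samples; any further cause was not tested. COX4I2, COX7B2 and COX8C held at most 3 reads in any library, so no change in them was detectable at this depth.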

Other observations

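Assembly and carrier genes that did not pass the test in limma still held separated groups in places. COX10, which makes the heme of complex IV, was 1443, 1232 and 1528 in siNT2 and 2036, 1822 and 1898 in siGLI1 (log2 fold change 0.46, 95% confidence interval 0.15 to 0.77, adjusted p = 0.0589), and every siGLI1 library was higher. ATPAF1, which assembles the F1 head of ATP synthase, was 920.2, 891 and 970.5 in siNT2 and 1257, 1240.1 and 1185 in siGLI1, again higher in each siGLI1 library (log2 fold change 0.40, 95% confidence interval 0.13 to 0.68, adjusted p = 0.0592). COA3, an assembly factor for MT-CO1, was 858, 1056 and 659 in siNT2 and 482, 459 and 663 in siGLI1, with siGLI1 replicate 3 just above siNT2 replicate 3 (log2 fold change -0.67, 95% confidence interval -1.19 to -0.16, adjusted p = 0.0796). TIMMDC1, which helps build the membrane arm of complex I, was 766, 686 and 746 in siNT2 and 591, 532 and 561 in siGLI1, lower in each siGLI1 library (log2 fold change -0.38, 95% confidence interval -0.68 to -0.09, adjusted p = 0.0846).

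GRSF1, a protein of mitochondrial RNA granules, was 2713, 2296 and 2868 in siNT2 and 3545, 3451 and 3214 in siGLI1, higher in each siGLI1 library (log2 fold change 0.38, 95% confidence interval 0.07 to 0.69, adjusted p = 0.0934). SLC25A6, an ADP/ATP carrier, was 11811, 11898 and 10444 in siNT2 and 14222, 12851 and 14733 in siGLI1, also higher in each (log2 fold change 0.29, 95% confidence interval 0.01 to 0.57, adjusted p = 0.141). ESRRG, a nuclear receptor that drives oxidative genes in muscle, was low, at 24.2, 17.2 and 39.9 in siNT2 and 70.2, 55.2 and 37.5 in siGLI1, with overlap (log2 fold change 1.01, 95% confidence interval 0.18 to 1.85, adjusted p = 0.0989).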
